A study of Neurospora crassa with 8 samples.

Results

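Loss of the velvet gene ve-1 was examined in the filamentous fungus Neurospora crassa growing in standard, iron-containing medium. The comparison is between the 2 libraries of the ve-1 mutant and the 2 libraries of wild type that the labels place under the standard condition, which are 4 of the 8 libraries of the series. Both genotypes were grown from conidia as shaken liquid cultures in Vogel's minimal medium with 1.5% sucrose for 48 hours at 32 degrees C, and polyA RNA of mycelia was sequenced. The other 4 libraries came from the same genotypes in the same medium without iron. They entered the choice of tested genes, the scaling of libraries and the estimate of the spread between replicates. They were also used in the fits that leave out 1 library and wherever iron-free medium or all libraries are named below. The labels give the genotypes as wt and ve-1 alone, so the strain background, the mating type and the kind of ve-1 allele are not given there, and each group is 2 cultures. The names of the deposited files carry a strain number that differs between the 4 libraries and recurs in the iron-free set, so the replicates of a group may be different strains, and what the numbers stand for is not known here. Members of the light and clock, carotenoid, complex I and heterokaryon incompatibility families are left out of the gene descriptions below.

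VE-1 is the Neurospora member of the velvet family of fungal regulators, known from Aspergillus as VeA. Velvet proteins carry a shared DNA-binding domain, move between cytoplasm and nucleus, and join other velvet proteins and the methyltransferase LaeA in complexes that are known for coordinating sexual and asexual development with secondary metabolism. In Neurospora, ve-1 mutants are known for short aerial hyphae and abundant conidiation.

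Transcripts of ve-1 followed the labels, with 156 and 231 CPM (read counts scaled to library size by the trimmed mean of M values, TMM) in the wild-type cultures and 2.79 and 4.41 CPM in those of the mutant. Total counts of the 4 libraries ran from 6654585 to 8802827, and replicates differed by far more than counting noise. The mating-type gene matA-1 had 118 and 0 counts in wild-type replicates 1 and 2 and 0 and 403 counts in ve-1 replicates 1 and 2, so replicates of 1 group did not match in this transcript, and its part in the results below was not tested. The hydrophobin gene eas, a marker of conidia and aerial hyphae, was at 53743 and 9323 CPM in wild type and 91783 and 101246 CPM in ve-1 (adjusted p = 0.354). In bulk mycelium, fewer cells of a type and less RNA per cell cannot be told apart. Markers of vegetative hyphae (17 genes, actin, tubulin, chitin synthase and ribosomal protein genes among them) summed to 10081 and 10859 CPM in wild type and 11531 and 11299 CPM in ve-1 in the same order of libraries. Within that sum members differed: crp-4 and crp-10 were called higher, chs-1, chs-5 and tba-1 lower, and the other 12 were not called. For the chitin synthase gene chs-5 the levels were 1006 and 1155 CPM in wild type and 292 and 342 CPM in ve-1, and for the actin gene act, which was not called, 1022 and 1269 CPM and 592 and 735 CPM.

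Loss of ve-1 changed transcripts widely and in both directions. Of 9730 counted genes 8118 were tested, and 2258 (27.8%) were called by edgeR's quasi-likelihood test at an adjusted p under 0.05, 1012 higher in ve-1 (12.5%) and 1246 lower (15.3%). Changes of at least 2-fold made up 828 of the rises and 1056 of the falls, and changes of at least 8-fold 114 and 250. The libraries of every called gene fell into 2 non-overlapping groups, as did those of 35.8% (ve-1 higher) and 38.6% (ve-1 lower) of all tested genes. The median log2 fold change over all tested genes was -0.03, and every value after ± beside a log2 fold change below is its standard error. The number of calls rested on single cultures: it was 104 without ve-1 replicate 1, 538 without wild-type replicate 2, 797 without ve-1 replicate 2 and 1692 without wild-type replicate 1. Of the 213 called genes that the rule for naming genes takes, 183, 124, 103 and 54 were no longer called in those fits. Genes described below as called in every fit are the 99 (1.22% of those tested) that were called the same way with all libraries and without any 1 of the 8.

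Among these 99 genes, 36 rose (0.443% of tested genes) and 63 fell (0.776%). Many of the rises were in genes with few counts in wild type: 18 of the 36 had a mean under 2 CPM in the wild-type standard cultures, and 14 were under 2 CPM in each of the other 6 libraries. Genes this low elsewhere entered the test mainly through the ve-1 standard cultures, where they are high. NCU07610 stood at 1.73 and 1.51 CPM in the wild-type cultures and 1317 and 839.9 CPM in the mutant, a log2 fold change of 9.36 ± 0.62 (adjusted p = 0.00186). NCU07820 and NCU09039 had no count in either wild-type culture. They reached 232 and 76.5 and 184 and 54.8 CPM in ve-1, which is at least 697-fold higher for the former and at least 539-fold higher for the latter, against a floor of 3 counts over the group. NCU07819 and NCU07821, the annotated neighbours of NCU07820, were at 913 and 272 and 463 and 147 CPM in ve-1 and had 2 and 3 counts in wild type. NCU10016, with 3 counts in wild type, was at 953 and 497 CPM in ve-1, 3336-fold higher (95% interval 1141 to 16181, exact Clopper-Pearson) by counting error alone. In 29 of the 36 rises the first ve-1 culture was the higher of the pair, as it was in 33 of the 63 falls. The share over all tested genes was not counted. None of the genes named in this paragraph has a symbol in the annotation table, so no function is given for them.

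Only 5 of the 36 rises have a symbol. The 3 sulfur genes cys-16, ars-1 and cys-14, are described with their pathway below. The transcription factor gene col-20 was at 5.63 and 5.28 CPM in wild type and 25.9 and 38.5 CPM in ve-1 (log2 fold change 2.56 ± 0.30, adjusted p = 0.00429). The protein kinase gene stk-25 went from 7.51 and 6.04 to 28.3 and 33.8 CPM (log2 fold change 2.19 ± 0.30, adjusted p = 0.00567). Both ve-1 cultures lay above both wild-type cultures in each case, as in every called rise. Neither pair differed by more than the distance between the genotypes.

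None of the 63 falls had a mean under 2 CPM in the wild-type standard cultures. A gene that low in wild type has little room for a called fall, so this is no contrast with the rises. Several of the 63 were left with a few counts in ve-1. NCU05126 stood at 448 and 1193 CPM in the wild-type cultures and 0.279 and 0.315 CPM in ve-1 (log2 fold change -11.37 ± 0.99, adjusted p = 0.00243). NCU05567 was at 1131 and 454 CPM against 0.558 and 0.157 CPM (log2 fold change -11.02 ± 0.99). NCU06912, with 74.5 and 90.4 CPM in wild type, held 3 counts in ve-1. The wild-type levels of the first pair of genes differed more than 2-fold between replicates, so the size of each fall is less certain than its direction. NCU06327 and NCU06328 carry successive locus numbers. NCU06327 was at 871 and 818 CPM in wild type and 6.13 and 5.51 CPM in ve-1, and NCU06328 at 57.2 and 62.2 and 0.976 and 0.157 CPM. A like pair, NCU07736 and NCU07737, includes NCU07736 with 81.9 and 129.5 CPM against 0.976 and 0.472 CPM. NCU00175 and NCU05964 were at 2585 and 2924 and 383 and 1319.5 CPM in wild type and 12.1 and 19.5 and 1.67 and 5.19 CPM in ve-1. The most abundant of the 63 was NCU07232, singled out here after its values were seen, with 46955 and 72125 CPM in wild type and 1145 and 2371 CPM in ve-1 (log2 fold change -5.08 ± 0.53, adjusted p = 0.00311). The gene with a symbol among the 62 falls outside the excluded families was the hyphal fusion gene ham-7.

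**Figure D1:**
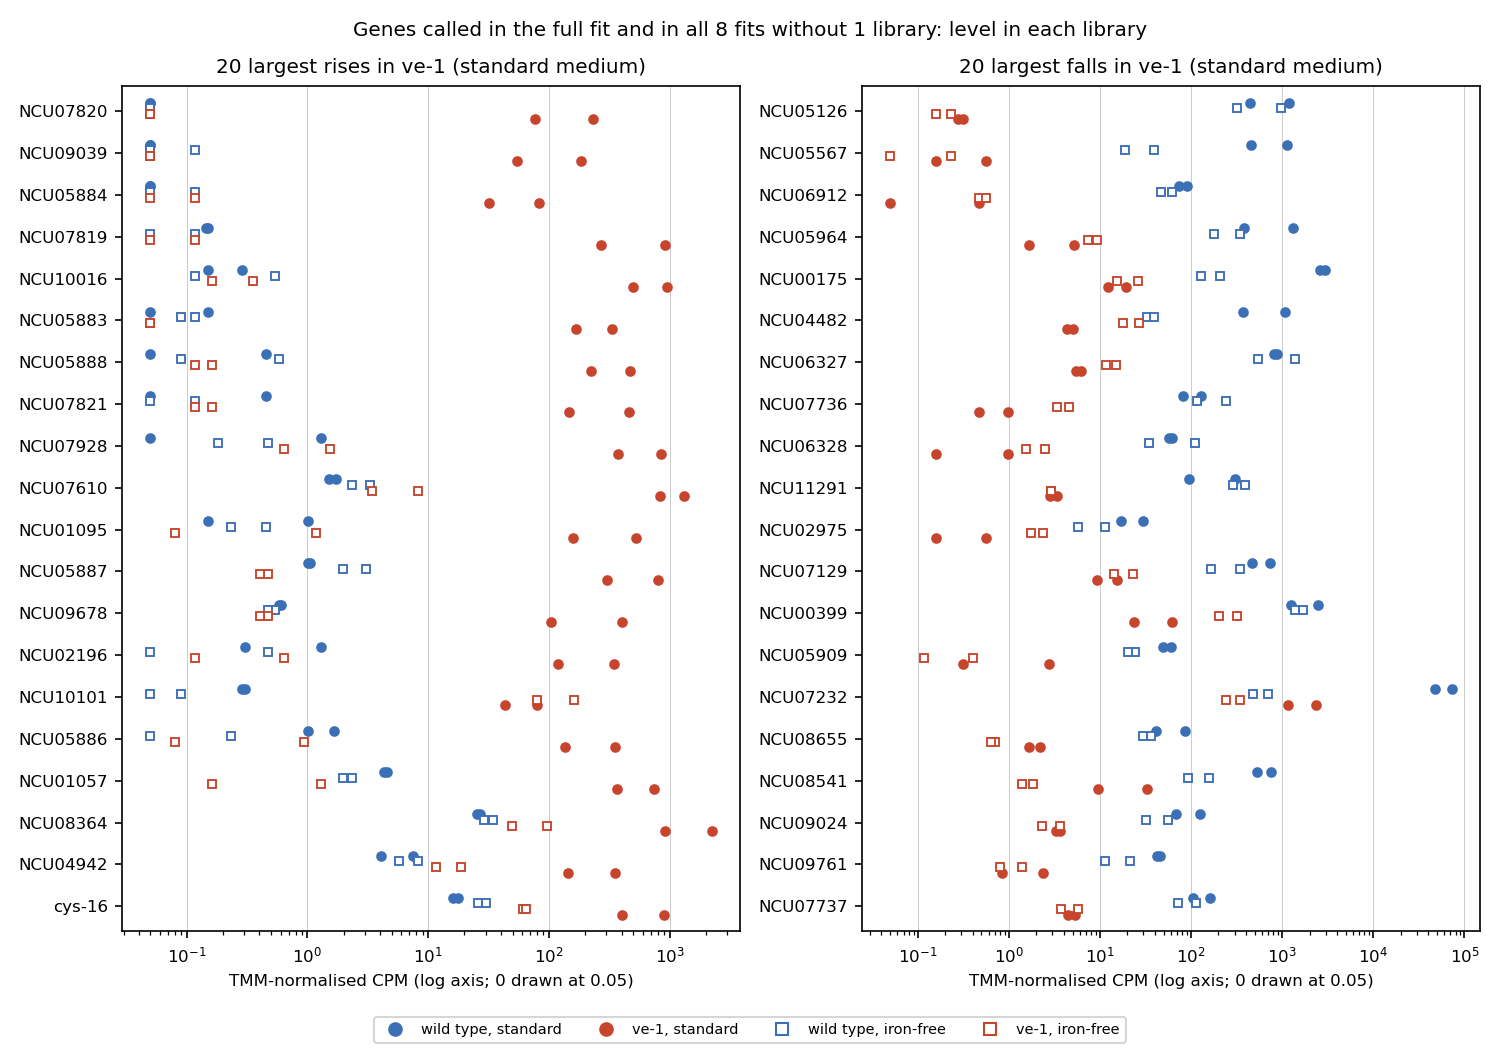
Level of the 20 largest rises (left) and 20 largest falls (right) among genes called with all libraries and without any 1 of them, in TMM-normalised CPM on a log axis, with 1 point per culture; filled circles are standard medium, open squares iron-free medium, blue wild type and red ve-1, and a level of 0 is drawn at 0.05. For the rises the red circles stand apart from all other points (except NCU10101, whose iron-free ve-1 cultures are also high), while for most falls both kinds of red point lie left of both kinds of blue.

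Genes of carbohydrate breakdown to ethanol had the largest share of falls among the 39 gene lists examined. Of 14 tested genes of glycolysis and fermentation, 10 were called lower (71.4%, beside 15.3% of all tested genes) and none higher, with a list median of -1.29 on the log2 scale against -0.03 for all tested genes. The glyceraldehyde-3-phosphate dehydrogenase gene gpd-1 was at 34010.5 and 27825 CPM in wild type and 6011 and 7387 CPM in ve-1 (log2 fold change -2.21 ± 0.35, adjusted p = 0.00757). The phosphoglycerate kinase gene pgk stood at 4351 and 4036 CPM against 903 and 1106 CPM (log2 fold change -2.06 ± 0.27, adjusted p = 0.00489). Both genes were several-fold lower in each mutant culture, with replicates close together. The aldolase gene fba fell with a log2 fold change of -1.55 ± 0.27, the glucose-6-phosphate isomerase gene gpi-1 with -1.25 ± 0.33, and ace-8 and the emp genes emp-3, emp-6 and emp-7 with -1.29, -1.29, -1.52 and -1.26. The fermentation genes fell too. For adh-1, an alcohol dehydrogenase gene, the wild-type cultures had 7096 and 7342 CPM and the mutant 1465 and 1692 CPM (log2 fold change -2.19 ± 0.63, adjusted p = 0.0394). The pyruvate decarboxylase gene cfp was uneven in wild type, at 1716 and 5783 CPM, against 441 and 734 CPM in ve-1 (log2 fold change -2.67 ± 0.80, adjusted p = 0.0446). Without ve-1 replicate 1 none of the 10 was called, and 5, 3 and 3 were called without wild-type replicate 1, wild-type replicate 2 and ve-1 replicate 2.

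In the sulfur list calls were made in the higher direction. Of its 18 tested genes 9 were called higher (50%, beside 12.5% of all tested genes) and none lower, with a median of 1.10 on the log2 scale; of the 9 not called, 2 had negative values. The genes for scavenging sulfate from outside the cell changed most. The sulfate permease gene cys-14 stood at 22.0 and 12.5 CPM in wild type and 512 and 188 CPM in ve-1 (log2 fold change 4.34 ± 0.54, adjusted p = 0.00488). The arylsulfatase gene ars-1, whose product frees sulfate from organic esters, was at 0.578 and 0.604 CPM against 29.7 and 14.8 CPM (log2 fold change 5.20 ± 0.62, adjusted p = 0.00436). For cys-16 the levels were 17.6 and 16.2 CPM in wild type and 900.4 and 406 CPM in ve-1 (log2 fold change 5.27 ± 0.44, adjusted p = 0.00237). These 3 genes were called in every fit, and each was at least 2-fold higher in ve-1 replicate 1 than in replicate 2. Assimilation and methionine synthesis changed less: cys-11, the ATP sulfurylase gene, rose by 1.63 ± 0.38, met-5, for homoserine acetyltransferase, by 1.49 ± 0.31, and met-6, for folylpolyglutamate synthetase, by 1.43 ± 0.26, all on the log2 scale. The others called were cys-2 (2.15), cys-4 (1.52) and cys-12 (1.10). The regulators of the system did not pass the threshold. The gene of its bZIP activator, cys-3, was at 151 and 134 CPM in wild type and 343 and 252 CPM in ve-1 (log2 fold change 1.06 ± 0.33, adjusted p = 0.0508). The F-box gene scon-2 and the SKP1-type gene scon-3, whose products restrain the activator, had log2 fold changes of 1.07 (adjusted p = 0.0639) and -0.64 (adjusted p = 0.0754). Of the list, 8, 4, 3 and 7 genes were called without wild-type replicate 1, wild-type replicate 2, ve-1 replicate 1 and ve-1 replicate 2.

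Rises were also called for many genes of protein import into mitochondria. In Neurospora, where this machinery was largely worked out, preproteins pass the outer membrane through the TOM complex and are sorted by the TIM complexes of the inner membrane. Of 27 tested genes 17 were called higher (63%, beside 12.5%) and none lower, with a median of 0.97 on the log2 scale and called values from 0.76 to 1.51; over the list, called or not, values ran from -0.40 to 1.51. Among the outer membrane genes, the receptor gene tom20 was at 61.5 and 44.2 CPM in wild type and 140.1 and 122 CPM in ve-1 (log2 fold change 1.31 ± 0.25, adjusted p = 0.0117). The pore gene tom40 stood at 81.6 and 75.6 and 149.6 and 163 CPM (log2 fold change 0.99 ± 0.20, adjusted p = 0.0133). The receptor genes tom22 and tom70 and the small subunit genes tom5, tom6 and tom7 were called as well. Of the presequence translocase, tim50 changed by 1.51 ± 0.27 (adjusted p = 0.0108), tim17 by 1.24 and tim23 by 1.03, whereas tim44 was not called (log2 fold change 0.90, adjusted p = 0.0586). The carrier translocase gene tim54 rose by 1.47 ± 0.23, and of the small chaperones of the intermembrane space tim8 and tim10 were called and tim9 and tim13 were not (adjusted p = 0.122 and 0.0528). The insertase genes oxa-1 and oxa-2, and mdm10 and mdm12 for the tether between mitochondria and endoplasmic reticulum, completed the 17. In this list 12 of the 27 genes overlap another annotated gene, and strand handling in counting is not known here. With a single library removed, 14, 0, 0 and 4 of the list were called (in the order wild-type replicates 1 and 2, ve-1 replicates 1 and 2), while its median stayed between 0.78 and 1.23. In iron-free medium 16 of the 27 were called higher in ve-1, beside 8.36% of all tested genes.

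**Figure D2:**
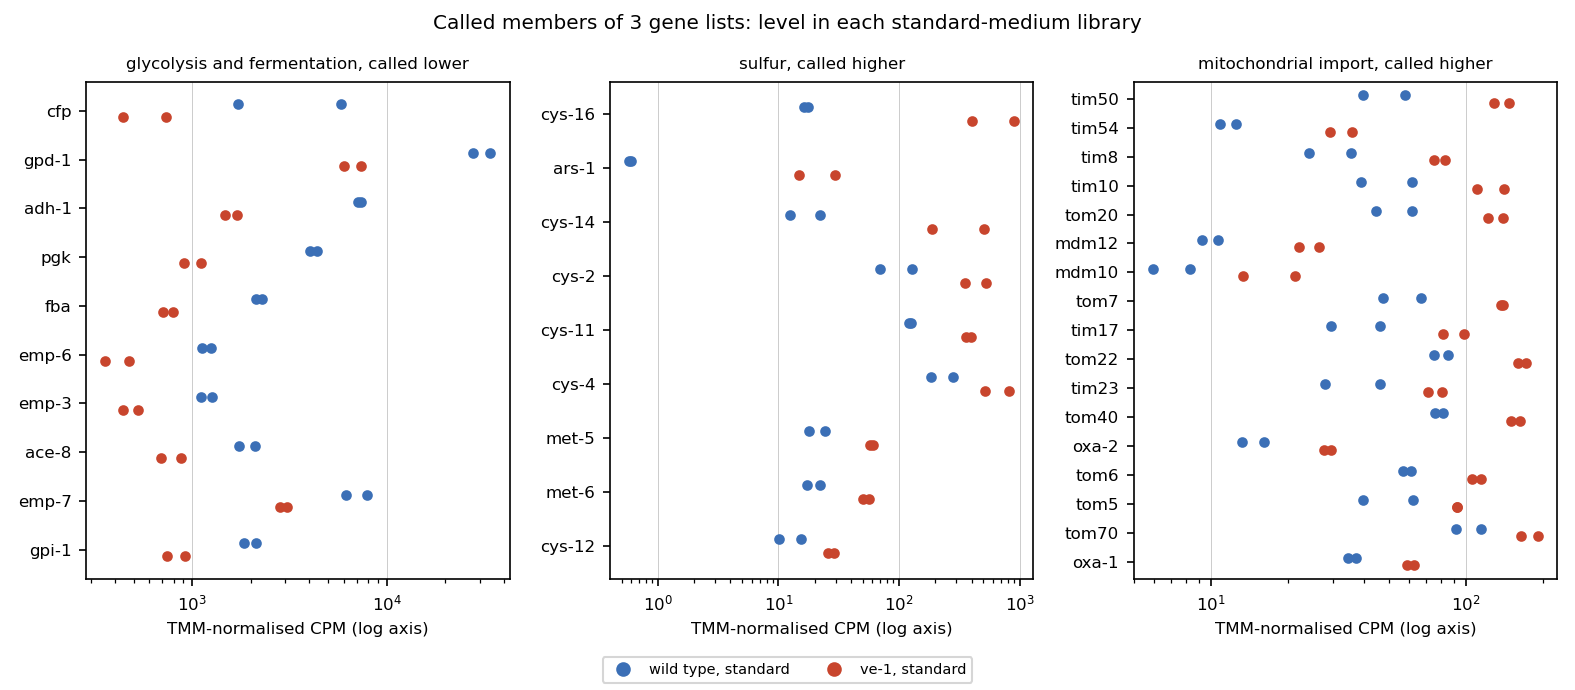
Level in each standard-medium culture of the called genes of glycolysis and fermentation (left), sulfur metabolism (middle) and mitochondrial protein import (right), in TMM-normalised CPM on log axes, blue for wild type and red for ve-1. As in every called gene, the genotypes do not overlap. All red points lie left of the blue in the first panel and right of them in the others, with the widest gaps for cys-16, ars-1 and cys-14.

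Falls were called for many of the genes that cells need to find and fuse with each other. In Neurospora germlings and hyphae fuse through a signalling dialogue in which the MAP kinase MAK-2, on its scaffold HAM-5, and the protein SO are recruited in turn to the facing tips. Of 16 tested genes 10 were called lower (62.5%, beside 15.3%) and none higher, with a median of -1.21 and values from -2.77 to 0.14 over the list. The gene ham-7, which encodes a cell wall anchored protein acting upstream of the cell wall integrity kinases, was at 257 and 293 CPM in wild type and 59.1 and 56.3 CPM in ve-1 (log2 fold change -2.25 ± 0.23, adjusted p = 0.00299), and it was called in every fit. For ham-9 the levels were 237 and 307 CPM and 41.8 and 38.2 CPM (log2 fold change -2.77 ± 0.32, adjusted p = 0.00429). The transcription factor gene adv-1, which acts below MAK-2, stood at 141 and 172 CPM against 24.0 and 23.9 CPM (log2 fold change -2.70 ± 0.38, adjusted p = 0.0059). Values within each genotype were close together for these 3 genes. Smaller falls were found for ham-8 (-2.21), ham-6 (-1.57), ham-5 (-1.43), so (-1.22), pp-1, the gene of another transcription factor of the pathway (-1.19), mak-2 (-1.05), and Prm1, whose product acts in merging the membranes (-1.85), all log2 fold changes. Counts of called members were 9, 4, 1 and 4 without wild-type replicates 1 and 2 and ve-1 replicates 1 and 2. In iron-free medium 9 of the 16 were called lower in ve-1, beside 10.1% of tested genes.

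Genes of the cell surface changed unevenly. Of 28 tested genes of wall synthesis and wall proteins 8 were called lower and 1 higher (28.6% and 3.57%, beside 15.3% and 12.5% of all tested genes), with a median of -0.37. The non-anchored cell wall protein gene ncw-1 was at 1992 and 4506 CPM in wild type and 229 and 212 CPM in ve-1 (log2 fold change -3.88 ± 0.55, adjusted p = 0.0059), and ncw-5 at 5229 and 4919.7 CPM against 977 and 741 CPM (log2 fold change -2.56 ± 0.34). The gene ncw-4 of the same kind went up, from 649 and 333 CPM to 2538 and 2419 CPM (log2 fold change 2.34 ± 0.46, adjusted p = 0.0134). Wall protein genes thus moved in both directions, each by several-fold. Falls were also called for the chitin synthase genes chs-5 (log2 fold change -1.77) and chs-1 (-1.23) and for acw-12, of an anchored wall protein (-3.44). Without ve-1 replicate 1 none of the 8 falls was called.

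Enzymes that cut plant polysaccharides included strong single falls. Of 39 tested genes 10 were called lower (25.6%, beside 15.3% of all tested genes) and 3 higher (7.69%, beside 12.5%), with a median of -0.56. The strongest fall was in gh28-1, of the polygalacturonase family, at 6.21 and 111 CPM in wild type and 0.418 and 1.89 CPM in ve-1 (log2 fold change -5.68 ± 1.40, adjusted p = 0.0265); the wild-type cultures differed widely and the call was lost in 3 fits without 1 library. The cellodextrin transporter gene cdt-2 was at 245 and 343 CPM against 32.9 and 32.9 CPM (log2 fold change -3.16 ± 0.37, adjusted p = 0.00429). The gene gh3-5 stood at 68.0 and 62.2 CPM and 9.76 and 12.1 CPM (log2 fold change -2.57), gh1-1 at 38.7 and 22.8 CPM and 3.35 and 3.93 CPM (-3.08), and gh61-2, of the lytic polysaccharide monooxygenases, at 5.63 and 5.58 CPM and 0.836 and 0.944 CPM (-2.64). In each of these genes, as in every called fall, both ve-1 cultures lay below both wild-type cultures. The 37 tested glycoside hydrolases of other families split into 10 called lower and 6 higher (27% and 16.2%, beside 15.3% and 12.5% of all tested genes). Their called values ran from -4.27 to 3.22. Among them were gh16-1 (-3.87) and gh76-5 (-3.62) on the low side and gh47-2 (3.22) and gh13-4 (2.84) on the high side.

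**Figure D3:**
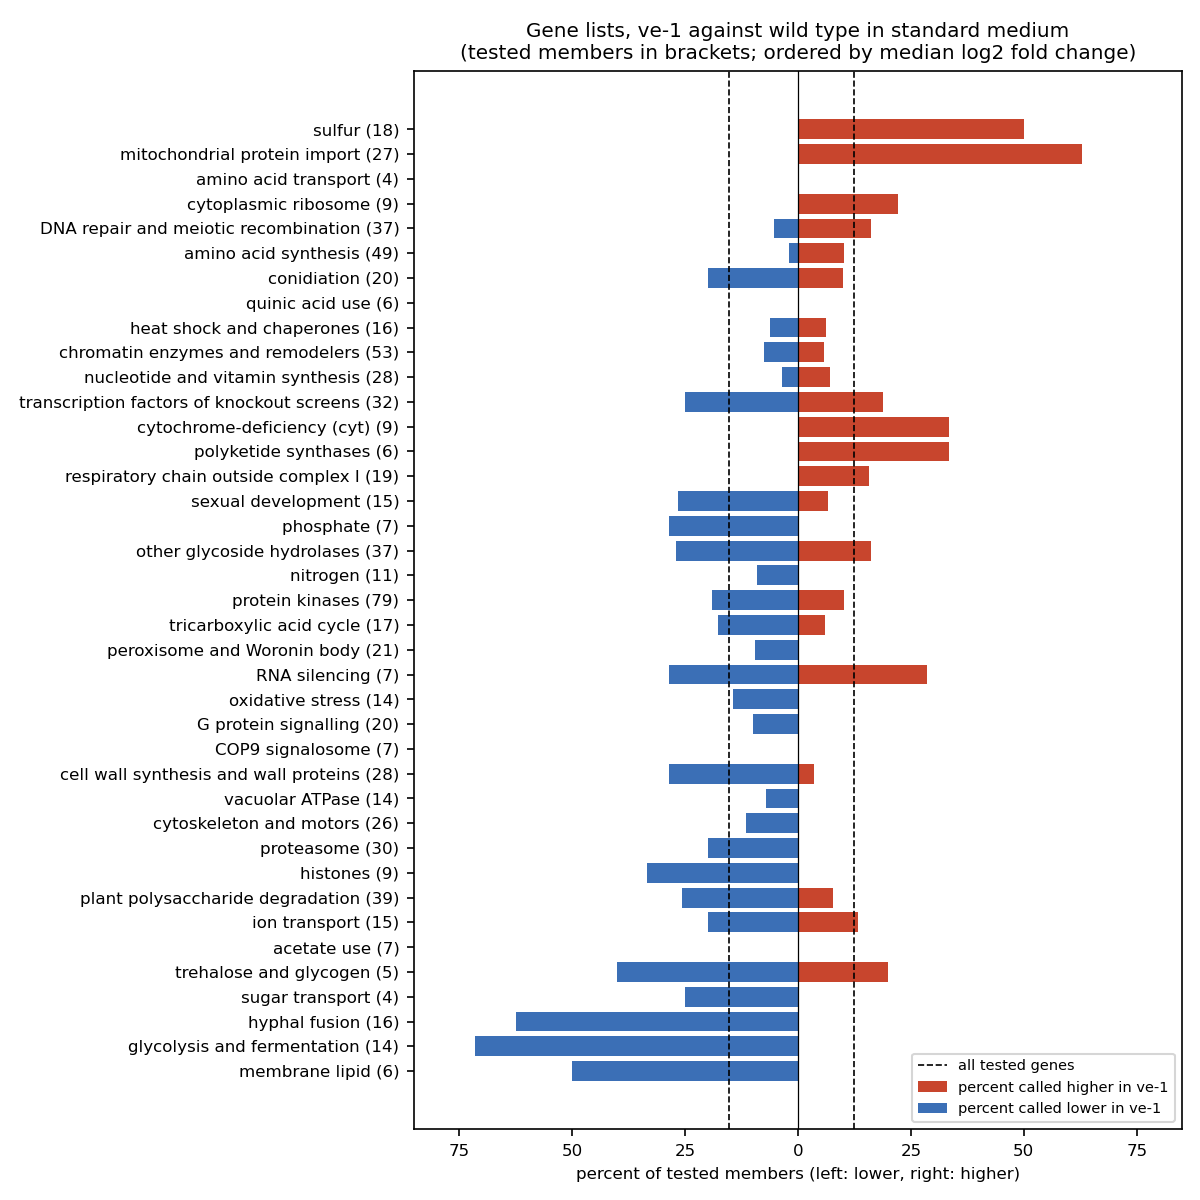
Share of tested members called higher (red, to the right) or lower (blue, to the left) in ve-1 in standard medium for 39 gene lists, ordered by their median log2 fold change, with the number of tested members in brackets. Dashed lines mark the shares over all tested genes, 12.5% higher and 15.3% lower; mitochondrial import (63%) and sulfur (50%) reach furthest on the higher side, and glycolysis and fermentation (71.4%), hyphal fusion (62.5%) and membrane lipid (50%, 3 of 6 genes) on the lower.

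Nutrient uptake and storage genes gave single strong changes. The acid phosphatase gene pho-3 was at 17.9 and 36.8 CPM in wild type and held 3 counts over both ve-1 cultures, 123-fold lower (95% interval 41.6 to 597, exact Clopper-Pearson) by counting error (adjusted p = 0.00429). The potassium transporter gene hak-1 stood at 258 and 577 CPM against 20.2 and 34.3 CPM (log2 fold change -3.94 ± 0.64, adjusted p = 0.00856), while trk, the gene of another potassium transporter, went from 19.5 and 14.5 CPM to 52.0 and 40.8 CPM (log2 fold change 1.45 ± 0.27, adjusted p = 0.0118). The potassium transporter genes thus moved in opposite directions. Falls were also called for the copper transporter gene tcu-2 (-1.81), the zinc transporter gene tzn-2 (-1.51) and the nitrate permease gene nit-10 (-2.04). Over the 15 tested ion transport genes 2 were called higher and 3 lower (13.3% and 20%, near the 12.5% and 15.3% of all tested genes). Of the 7 phosphate genes the regulator gene nuc-1 was the only other one called (-0.97), so 2 were lower (28.6%, beside 15.3%). For the storage sugar trehalose, the trehalase gene tre-1 went from 77.3 and 19.5 CPM to 480.2 and 251 CPM (log2 fold change 2.92 ± 0.76, adjusted p = 0.0306) and the trehalose synthase gene ccg-9 from 4260.4 and 3869.8 CPM to 1132 and 1015 CPM (log2 fold change -1.92 ± 0.25, adjusted p = 0.00489). The breakdown gene rose and the synthesis gene fell, and the glycogen synthase gene gsy-1 fell as well (-1.07). Of 6 membrane lipid genes 3 were called lower (50%, beside 15.3% of all tested genes). They were chol-1, for phosphatidylethanolamine methyltransferase (-1.65), and the ergosterol genes erg-3 (-1.61) and erg-4 (-1.26).

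Among regulators, 8 of 79 tested protein kinase genes were called higher and 15 lower (10.1% and 19%), close to the 12.5% and 15.3% of all tested genes. The gene stk-44 was at 17.5 and 16.9 CPM in wild type and 0.558 and 0.472 CPM in ve-1 (log2 fold change -5.02 ± 0.72, adjusted p = 0.00601), and stk-29 at 53.3 and 20.5 CPM against 223 and 176 CPM (log2 fold change 2.43 ± 0.48). Of 32 tested transcription factors named from knockout screens 6 were called higher and 8 lower (18.8% and 25%, beside the same 12.5% and 15.3%), among them tah-3 (-2.08), ada-1 (-2.13) and msn-1 (-1.70) on the low side. The 53 tested chromatin genes gave 3 calls higher and 4 lower, fewer on each side than the shares over all tested genes. Of 37 DNA repair and meiotic genes 6 were called higher and 2 lower (16.2% and 5.41%, beside 12.5% and 15.3%). The UV endonuclease gene mus-18 was at 107 and 72.3 CPM in wild type and 522 and 439 CPM in ve-1 (log2 fold change 2.42 ± 0.73, adjusted p = 0.046), and mus-40 at 19.5 and 24.5 CPM against 107 and 117 CPM (log2 fold change 2.35 ± 0.35). The Ku80 gene mus-52 rose by 1.27 ± 0.20 on the log2 scale. The meiotic recombination gene msh4 went down, from 20.4 and 38.3 CPM to 1.53 and 2.36 CPM (log2 fold change -3.91 ± 0.60, adjusted p = 0.00742). In RNA silencing, sad-3, known from meiotic silencing, was at 0.578 and 0.302 CPM in wild type and 6.27 and 7.08 CPM in ve-1 (log2 fold change 3.87). The gene qip rose (0.65, adjusted p = 0.0475), whereas the RNA-dependent RNA polymerase gene qde-1 (-1.04) and the Argonaute gene qde-2 (-0.91) fell. Other rises with a symbol were mig-2, from 12.9 and 3.47 CPM to 178 and 177 CPM (log2 fold change 4.44 ± 1.07, adjusted p = 0.0249), mip-1, for the mitochondrial DNA polymerase, from 40.3 and 17.5 CPM to 227 and 227 CPM (log2 fold change 2.97 ± 0.47, adjusted p = 0.00808), and the polyketide synthase gene pks-3, from 75.6 and 30.6 CPM to 439 and 254 CPM (log2 fold change 2.71 ± 0.49, adjusted p = 0.0109).

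Genes tied to conidia were called in both directions, at shares near those of all tested genes. Of 20 tested conidiation genes 2 were called higher and 4 lower (10% and 20%, beside 12.5% and 15.3%). The gene con-6, switched on during conidiation, was at 249 and 79.1 CPM in wild type and 2228 and 5209 CPM in ve-1 (log2 fold change 4.50 ± 0.92, adjusted p = 0.0149). The 4 called falls were all in clock-controlled (ccg) genes. The gene eas, itself a ccg gene, was higher in both ve-1 cultures and was not called. Levels of ccg-14 were 19012 and 26574 CPM in wild type and 1584 and 1841 CPM in ve-1 (log2 fold change -3.73 ± 0.55, adjusted p = 0.00617), those of ccg-13 12906 and 14508 and 1708 and 1124 CPM (-3.27), and those of ccg-16 3479 and 7852 and 443 and 431 CPM (-3.70). Of the 8 marker genes of conidia, 1 was called higher and 2 lower, and their summed level was 90484 and 56779.6 CPM in wild type and 107671 and 121338 CPM in ve-1, which is mostly eas. The conidiation genes con-8, con-10 and con-13 and the regulator gene fl had log2 fold changes of 0.80, 2.70, 1.44 and 1.22 and were not called (adjusted p = 0.371, 0.0549, 0.541 and 0.294). The part of conidial tissue in the other changes was not tested.

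Genes of sexual development included 4 falls and 1 rise among 15 tested (26.7% and 6.67%, beside 15.3% lower and 12.5% higher of all tested genes). The ascus development gene asd-1 was at 100.3 and 252 CPM in wild type and 16.6 and 12.1 CPM in ve-1 (log2 fold change -3.61 ± 0.48, adjusted p = 0.00514). Falls were also called for the APSES transcription factor gene Asm-1 (-1.64) and the female fertility gene ff-7 (-1.52). The rise was in poi-2, a gene needed for perithecial development, from 3.32 and 3.47 CPM to 633 and 71.3 CPM (log2 fold change 6.69 ± 1.72, adjusted p = 0.0296). Most of it came from ve-1 replicate 1, and the call was lost in 3 fits without 1 library. Over 7 tested markers of sexual tissue the summed level was 454 and 667 CPM in wild type and 870.0 and 263 CPM in ve-1. The sum was highest in ve-1 replicate 1 and lowest in ve-1 replicate 2. Of the 870.0 CPM in ve-1 replicate 1, 633 CPM were poi-2, so its high rank rests on 1 gene.

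Other mitochondrial genes outside complex I, whose genes are not described here, were examined list by list. Of 19 respiratory chain genes outside complex I, 3 were called higher (15.8%, beside 12.5% of all tested genes) and none lower. Among them were the alternative NADH dehydrogenase gene ndi-1 (2.17, adjusted p = 0.0488) and aod-2, for an activator of the alternative oxidase gene (1.38). Of 9 cyt genes 3 were called higher (33.3%, beside the same 12.5%), including cyt-4 and cyt-19 of mitochondrial RNA processing and splicing (1.75 and 1.28). Of 17 tricarboxylic acid cycle genes 1 was called higher, tca-6 (0.79), and 3 lower, tca-16 (-1.48), tca-5 (-1.36, adjusted p = 0.0469) and tca-14 (-1.07). These shares were 5.88% and 17.6%, beside 12.5% and 15.3% of all tested genes. No called member was found among 7 genes of acetate use, 6 of quinic acid use, 4 of amino acid transport or 7 of the COP9 signalosome. At an unadjusted p under 0.05 those lists held 1, 0, 0 and 1 genes, and DESeq2 called 1, 0, 0 and 0. Of 49 amino acid synthesis genes 5 were called higher and 1 lower, shares below the 12.5% and 15.3% of all tested genes. In iron-free medium 20 of the 49 were called higher and none lower, beside 8.36% and 10.1% of all tested genes. Smaller falls were called in 6 of 30 proteasome genes (20%, near the 15.3% of all tested genes; log2 fold changes from -0.96 to -0.76) and in 3 of 9 histone genes (-1.17 to -0.95), and none of these 9 was called under total-count scaling. Rises of 0.72 and 0.89 were called for crp-4 and crp-10, 2 of 9 tested cytoplasmic ribosomal protein genes (22.2%, beside 12.5% of all tested genes). The call for crp-4 was just under the threshold (adjusted p = 0.0495), as were those for the histone genes hH2A (0.0459) and hH2B (0.0446).

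Some changes were shared by genes that lie side by side. In the gene order of the reference annotation there were 16 runs of at least 4 neighbouring genes called in 1 direction, 3 higher and 13 lower, with 84 genes in all, and the 6 longest are described. The longest held 12 genes, from NCU05761 to poi-2 (NCU05768), all higher in ve-1. Their summed level was 11.8 and 23.1 CPM in wild type and 1191 and 163.6 CPM in ve-1. Each of the 12 was higher in ve-1 replicate 1 than in replicate 2, by a median of 7.34-fold, so the size of the rise rests mainly on 1 culture. Most of the 12 were also no longer called when either wild-type culture was left out. None was called in that direction in iron-free medium, and none was called without ve-1 replicate 1. The pheromone receptor gene pre-2 lies 3 genes before the run. It was at 1.01 and 2.87 CPM in wild type and 76.7 and 2.2 CPM in ve-1 and was not called (adjusted p = 0.0559).

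The run NCU05883 to NCU05888 was on in both ve-1 standard cultures and almost silent elsewhere. Its 6 genes summed to 12.1 and 15.7 CPM in wild type and 2386 and 1013 CPM in ve-1, and to at most 11.3 CPM in any iron-free library. NCU05887 went from 1.01 and 1.06 CPM to 809 and 305 CPM (log2 fold change 9.05 ± 0.64, adjusted p = 0.00186), and NCU05885, the member with the highest wild-type level, from 10.1 and 12.4 CPM to 339 and 149 CPM. Of the 6 genes 5 were called in every fit, and 5 were still called without ve-1 replicate 1.

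The other 4 runs were lower in ve-1. NCU10883 to NCU05131, 9 genes that include ncw-1, summed to 3607 and 8734 CPM in wild type and 522.9 and 518.6 CPM in ve-1, with log2 fold changes from -4.66 to -2.22, and 5 of the 9 were also called lower in iron-free medium. Within it NCU05133 was at 175 and 709 CPM against 17.6 and 17.3 CPM and NCU05136 at 670.5 and 1524 CPM against 134 and 146 CPM. In all 9 genes wild-type replicate 2 was the higher culture. NCU04491 to NCU04487, 7 genes, summed to 188.8 and 400.8 CPM in wild type and 55.3 and 49.9 CPM in ve-1, led by NCU04487 with 53.0 and 85.6 CPM against 1.25 and 0.787 CPM. NCU09354 to NCU09357, 5 genes, fell from 547.4 and 1004 CPM to 166.3 and 151.8 CPM, and the largest changes were in NCU09356, at 58.4 and 199 CPM in wild type against 2.09 and 1.89 CPM in ve-1, and in NCU09357, at 48.5 and 218 CPM against 4.04 and 3.3 CPM. NCU02886 to NCU02882, 5 genes that include the kinase gene stk-20, went from 1544 and 2036 CPM to 591.1 and 656.2 CPM. No gene of these 4 runs was called without ve-1 replicate 1.

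**Figure D4:**
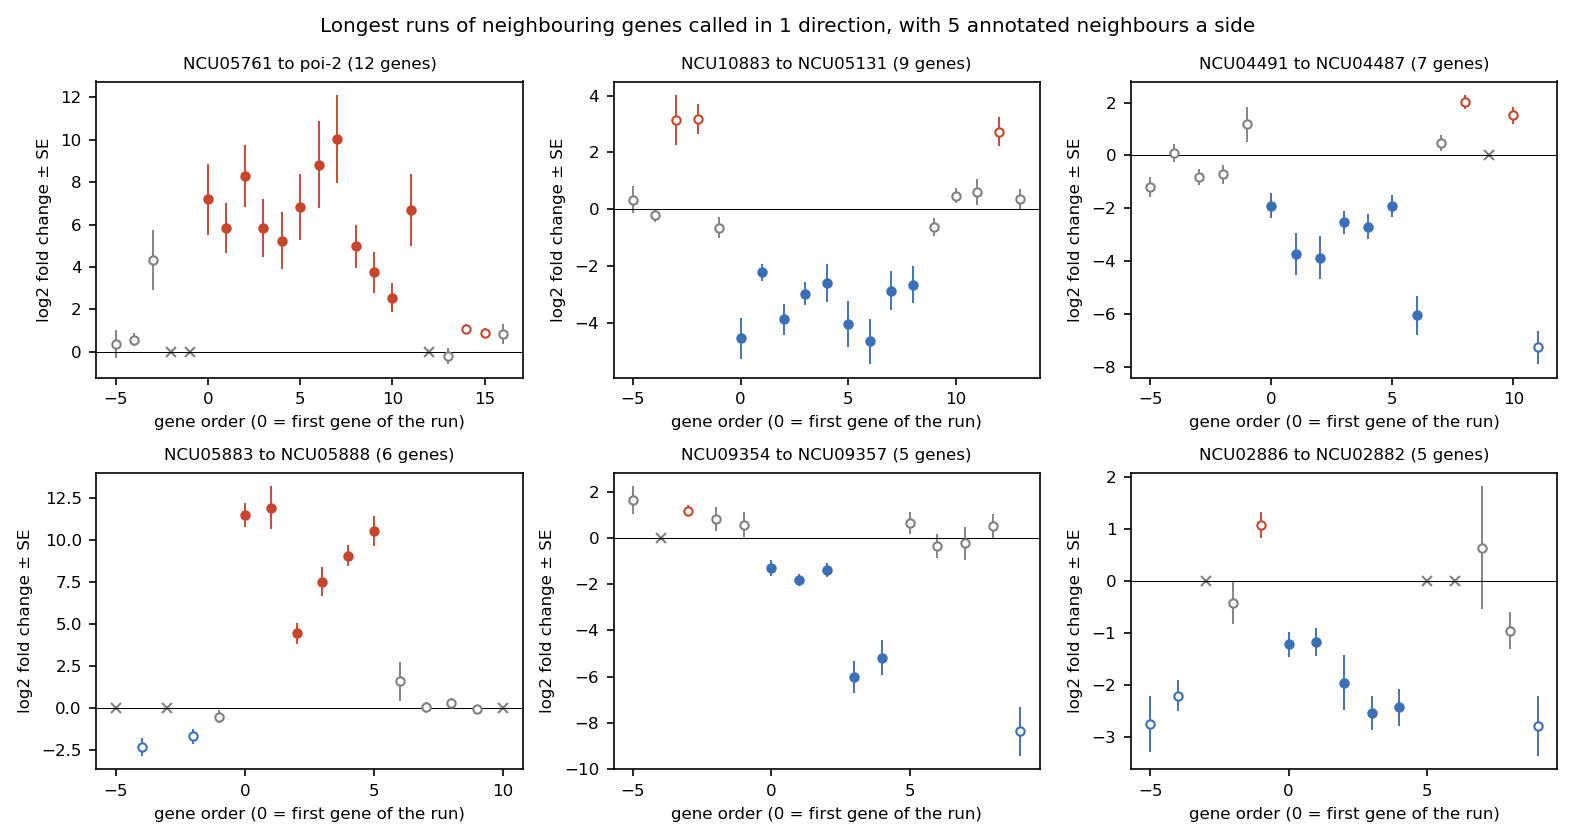
Log2 fold change (± SE) between ve-1 and wild type with iron along the annotated gene order for the 6 longest runs, with 5 neighbours on each side. Filled points are genes of the run, open points neighbours, red called higher, blue called lower, grey not called, and grey crosses neighbours that were not tested; in each panel the flanking genes next to the run are not called in its direction, and fitted values of genes with no wild-type count depend on the prior count.

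The called genes were set beside the same comparison in iron-free medium. Of the 1246 called falls 508 (40.8%) were also called lower in ve-1 in iron-free medium, where 10.1% of all tested genes were, and of the 1012 rises 233 (23%) were also called higher, where 8.36% were. The 2 media share no library, although their libraries share 1 estimate of the spread. The strain numbers in the file names recur between the media, so both comparisons may hold the same strains. What shared strains add to these overlaps was not tested. Among genes called in every fit, of the 63 falls 59 were called lower in iron-free medium, with a median log2 fold change of -3.88 in standard and -3.14 in iron-free medium. Of the 36 rises 7 were called higher there and 1 lower, and 6 held at most 3 counts in each iron-free group. A shared rise was NCU10101, singled out after its values were seen, at 0.289 and 0.302 CPM in wild type and 43.5 and 80.1 CPM in ve-1 in standard medium and at 162.3 and 80.1 CPM in ve-1 without iron. The sulfate permease gene cys-14, at 512 and 188 CPM in ve-1 with iron, was at 3.76 and 4.34 CPM in ve-1 without iron. Wild type without iron had 7.85 and 6.07 CPM. For cys-14 edgeR's test of the difference between media did not pass the threshold (adjusted p = 0.0634).

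A test of the difference between the genotype effects in the 2 media called 20 genes (0.246% of those tested). This test has less power than either comparison, and a gene that missed it is not shown to respond alike in both media. Of the 99 genes called in every fit it called 9 rises and 3 falls. Among all 20, those the naming rule takes are as follows. NCU07610, NCU05887, NCU10016, NCU10015, NCU01057 and cys-16 rose more in standard medium than in iron-free medium. NCU00175 and NCU04482 fell more there, and NCU04644, NCU01704 and NCU06974 were lower in ve-1 with iron and called higher in ve-1 without it.

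**Figure D5:**
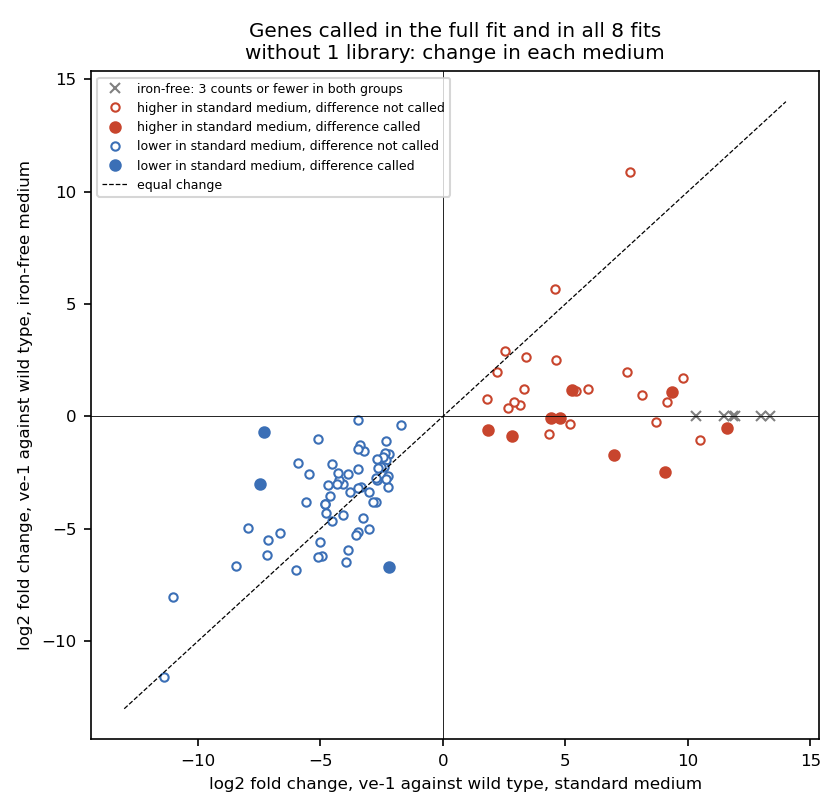
Log2 fold change of ve-1 relative to wild type with iron (horizontal) and without it (vertical) for the 99 genes called with all libraries and without any 1 of them; filled points are genes called for the difference between media, grey crosses the 6 genes with 3 counts or fewer in both iron-free groups, drawn at 0. Blue points (lower in standard medium) scatter about the dashed line of equal change, and most red points (higher) lie near the horizontal axis.

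In the authors' deposited table for the same comparison, 2197 genes were listed, 1031 higher and 1166 lower in ve-1. Of these 1792 were also called here, which is 81.6% of the listed genes and 79.4% of the called ones, and all 1792 had the same sign. All 99 genes called in every fit were listed in the authors' deposited table.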

How the data were processed

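Poly(A) RNA was sequenced from 8 cultures, 2 for each genotype and medium, grouped by the labels. Each library came as 1 table of whole-number counts by gene, which the authors deposited without normalization. FastQC, Trim Galore, STAR and DESeq2 are named in the submitters' processing notes without role or version, and the labels' protocols name a stranded mRNA kit. Neither the read counter nor its strand setting nor the genome build is given in the sources used here. For this comparison, the authors' deposited table gives a log2 fold change with an adjusted p-value for each listed gene and served only for counting genes called in both and their signs.

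The tests were run with edgeR 4.0.16 (R 4.3.3, limma 3.58.1). Genes were kept by filterByExpr (minimum count 10, minimum total 15), libraries were scaled by TMM, and a model of 4 groups was fitted to all 8 libraries, with robust estimates of dispersion and 4 degrees of freedom left for the spread. The contrast was tested with the two-sided quasi-likelihood F test and Benjamini-Hochberg adjustment over all 8118 tested genes, and adjusted p values of single genes come from this test. The fit was also run on simulated counts with 200 changed genes and 1 spread for all genes. That setting is simpler than these data, so it does not show how the calls behave under uneven spread. The p-values of the fit to the real counts measure the spread between 2 cultures a group. An exact permutation of 2 against 2 could not pass the threshold alone. Levels are TMM-normalised CPM, and floors (3 counts over a group) and intervals cover counting error only. Alternatives were other scalings, filters and tests (DESeq2 1.42.0), the 4 libraries alone, a replicate block and leaving out each library. Same-numbered libraries of the 2 genotypes deviated with a correlation of 0.07 in standard and -0.05 in iron-free medium. The numbers were therefore not taken to pair the genotypes within a medium. Pairing of same-numbered libraries between the media was not checked. The fit treats all 8 libraries as independent, which shared strains would not be, and the spread could then be understated.

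The members and the gene lists were chosen with earlier results of these data known. The rule for named genes took, by size of change, 12 rises and 12 falls that have a symbol and 5 of each that have none, among called genes with non-overlapping libraries and a mean of at least 50 normalised counts in the higher group; the 10 largest rises and falls called in every fit; up to 4 called members of each of the described lists; the members of the 6 longest runs; and the 5 highest and lowest genes called for the difference between media. Further list members were added after their values were seen, to complete the sulfur, glycolysis, import and fusion lists, and uncalled genes are given by value. Symbols, gene spans and neighbour order came from RefSeq's annotation of NC12. It covers 9729 of the 9730 identifiers and holds symbols for 1089 of the tested genes. The authors' build is not named, so no coordinates are printed. These named genes overlap another annotated gene, and their counts are uncertain: ace-8, acw-12, ada-1, adh-1, chol-1, con-6, crp-10, cys-12, cys-3, cyt-19, emp-3, gh28-1, gh3-5, mak-2, mdm10, mdm12, met-6, mig-2, NCU04491, NCU05883, NCU05885, NCU05964, NCU09354, NCU10015, NCU10016, ncw-1, ncw-5, oxa-2, pgk, qip, stk-20, stk-25, tba-1, tca-16, tca-5, tcu-2, tim10, tim13, tim17, tim44, tim54, tim8, tom5 and tre-1.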

Additional observations from a re-analysis of the deposited data

Results flagged for a closer look

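For 11 genes named by the rule, the effect of losing ve-1 differed between the 2 media by edgeR's test of the difference of log2 fold changes (standard minus iron-free, adjusted p from 0.0147 to 0.0444). NCU10016 (12.09), NCU05887 (11.54), NCU01057 (8.67) and NCU07610 (8.29) were high in both ve-1 cultures with iron and at most 8.28 CPM in every other library. NCU10015 (4.86) was at 839 and 448.9 CPM in ve-1 with iron and between 22.97 and 33.3 CPM in the other 6 libraries. The sulfur gene cys-16 (4.11) was at 900.4 and 406.1 CPM in ve-1 with iron and at 60.5 and 64.2 CPM in ve-1 without it. NCU04482 (-6.61) was at 374.5 and 1081 CPM in wild type with iron and between 4.32 and 39.6 CPM elsewhere, and NCU00175 (-4.44) was at 2585 and 2924 CPM in wild type with iron and at most 208.8 CPM elsewhere. NCU06974 (-4.28), NCU04644 (-3.82) and NCU01704 (-2.69) were lower in ve-1 with iron and higher in ve-1 without it. The levels of NCU06974 were 211.5 and 144.2 CPM in wild type and 57.3 and 69.4 CPM in ve-1 with iron, and 6.22 and 5.61 CPM against 41.7 and 40.5 CPM without it. When either the second wild-type or the first ve-1 culture of the iron-free groups was left out, edgeR called 0 genes of the whole table for this difference, with 1357 and 1659 at an unadjusted p under 0.05.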

How the results depend on the processing

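The count of 2258 called genes (1012 higher, 1246 lower) ran from 104 to 2361 with 1 library left out, that of rises from 38 to 1074 and that of falls from 66 to 1287, where the lone library of a group is assumed to vary like the other groups. Total-count scaling gave 1541 higher and 787 lower and moved the median of all genes by 0.31 (log2). Upper-quartile scaling gave 1221 and 1009, with a shift of 0.13. The other alternatives stayed within 1.5 times of these counts: DESeq2 called 1291 higher and 1493 lower, and the 4 libraries alone 1188 and 1268. A replicate block gave 894 and 1140 calls (2034 in all). The numbers showed no pairing of the genotypes within a medium, with correlations of 0.0718 and -0.0534, and pairing between media was not checked. Genes called for the difference between media numbered 20, 601 with DESeq2, 35 without a filter on low counts, 21 with the replicate block, and 0 to 22 with 1 library left out. The fits with 0 calls (edgeR, leaving out the second wild-type or the first ve-1 culture of the iron-free groups) held 1357 and 1659 genes at an unadjusted p under 0.05. Of 16 runs of neighbouring genes 6 held at least 5 genes, and 0 runs could be built from calls made in every fit. With a minimum count of 50, 206 of the 213 named calls could be tested. Depth limits genes with few counts in wild type, whose fold changes rest on bounds, and 2 cultures a group limit the rest.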
